A study of Mus musculus with 24 samples.

Results

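The unfolded protein response and the Atf4 stress programme were followed through 10 mouse genes in myeloid cells of the colon. Hspa5, Hsp90b1 and Pdia4 encode folding factors of the endoplasmic reticulum (ER), Herpud1 and Xbp1 serve ER-associated degradation and its transcriptional control, and Atf4, Ddit3, Trib3, Asns and Chac1 belong to the Atf4 branch. The genes were chosen by symbol, through the Ensembl identifier of each row of the expression table. All 10 were among the 17301 genes of the table, and all 10 passed the filter on low values that left 12878 genes for testing (a mean of at least 1 read per kilobase per M reads, RPKM, in at least 1 group).

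The ER folds secreted and membrane proteins, and a load of unfolded protein in its lumen is sensed by Ire1 (Ern1), Atf6 and Perk (Eif2ak3). Ire1 splices the Xbp1 mRNA, which then encodes a transcription factor for folding and degradation genes, and cleaved Atf6 acts on many of the same promoters. Perk and related kinases phosphorylate eIF2alpha, which lowers general translation but raises that of Atf4, a transcription factor for amino acid supply, aminoacylation and, under lasting stress, for Ddit3 (Chop), Trib3 and Chac1. Plasma cells depend on this machinery for antibody secretion, and macrophages and neutrophils use Xbp1 or Chop in inflammatory responses. The counts used here are per gene, so spliced and unspliced Xbp1 mRNA were not separated, and neither Atf4 protein nor eIF2alpha phosphorylation was measured.

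The promoters of the genes carry short elements that classically tie them to these branches, and the stretches that hold them are shown here because they group the genes independently of their expression. They are RefSeq sequence of GRCm38.p6, read 5′ to 3′ on the gene's strand, with the element in capitals. The ER stress response element (ERSE) was searched on both strands, as CCAAT and CCACG with 9 free bases between them, in the 250 bases before each RefSeq start site. It was found in Hspa5 and in Hsp90b1, which has a pair of them, and in 0.113% of all 32851 such windows. Pdia4 and Herpud1 had the element without its last base, ending in CCAC, a pattern that also covers every full match and occurred in 0.320% of windows.
Hspa5 (chr2:34772020-34772049, plus strand): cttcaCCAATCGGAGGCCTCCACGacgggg
Hsp90b1, distal (chr10:86705632-86705661, minus strand): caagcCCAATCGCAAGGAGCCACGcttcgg
Hsp90b1, proximal (chr10:86705527-86705556, minus strand): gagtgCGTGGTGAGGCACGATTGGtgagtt
Pdia4 (chr6:47813596-47813625, minus strand): aaccgaGTGGCAGCCCGTGATTGGtggtcg

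The core TGATGNAAC of the amino acid response element, which Atf4 can bind with a C/EBP partner, was found in Herpud1, Asns and Chac1 and in 0.712% of windows. Herpud1 also had the related ERSE-II, ATTGG and CCACG with 1 free base between them, found in 0.0304% of windows. Herpud1 was therefore the only one of the 10 promoters with matches of both kinds in this window, and its 250 bases are given whole. From 5′ to 3′ the capitals mark the amino acid response core on the opposite strand, the ERSE-II and the ERSE without its last base. The Hspa5 and Asns stretches lie inside the GENCODE M21 span of their gene, which begins upstream of the RefSeq start, and the others lie upstream of that span. Atf4, Xbp1, Ddit3 and Trib3 had none of these letters in the window, and the core TGACGTGG of the unfolded protein response element was found in none of the 10 genes and in 0.563% of windows. A match describes letters only.
Herpud1 (chr8:94386179-94386428, plus strand): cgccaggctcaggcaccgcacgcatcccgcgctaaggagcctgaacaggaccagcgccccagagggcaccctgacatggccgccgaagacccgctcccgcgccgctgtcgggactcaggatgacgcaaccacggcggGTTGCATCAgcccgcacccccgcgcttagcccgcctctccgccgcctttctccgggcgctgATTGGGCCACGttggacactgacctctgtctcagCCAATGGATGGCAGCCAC
Asns (chr6:7693213-7693242, minus strand): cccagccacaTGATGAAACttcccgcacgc
Chac1 (chr2:119351038-119351067, plus strand): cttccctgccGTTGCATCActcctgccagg

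Myeloid cells had been sorted from the colon lamina propria (LP) of mice labelled C57/BL and healthy, and from colon tumours of mice labelled APC/Min, which carry a germline Apc mutation and form intestinal adenomas. The same 4 gates were used in both tissues, for Ly6Ghi F4/80- CD11b+ neutrophils, Ly6Chi MHCII- monocytes, and F4/80hi macrophages that were MHCIIhi or MHCIIlow. This gave 8 groups of 3 libraries, each library from pooled tissue of several mice whose age the labels do not give. Libraries are named below by tissue, population and Roman numeral. The labels give the numeral as a donor, while the study describes pooled tissue, so it is called a pool number here. The tumour-bearing mice had received dextran sodium sulphate, which damages the colon epithelium, and the study describes the same agent for wild-type mice whose LP was profiled, while the labels call the LP healthy, so that the treatment of the LP donors is not settled here. The study's methods also give different enzyme steps and density gradients for LP and tumour, so that tissue and isolation cannot be told apart in any tumour against LP comparison.

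The libraries held 12.8 M to 41.7 M reads on the genes of the table. MHC class II genes and neutrophil markers stood where the labels put them: the 4 MHC class II genes summed to between 16672 and 45690 RPKM in the MHCIIhi libraries and between 875.9 and 9853 RPKM in the MHCIIlow libraries, and the 7 neutrophil markers summed to at least 10497 RPKM in neutrophils and at most 301.3 RPKM elsewhere. The 5 monocyte markers did not set monocytes above neutrophils. In LP they summed to 323.2 to 457.1 RPKM in monocytes against 570.9 to 609.8 in neutrophils. In tumour the sums were 404.1 to 660.1 and 743.1 to 985.4. In each tissue 1 of these 5 was higher and 2 were lower in neutrophils. Macrophage libraries held at most 19.1 RPKM of them. Transcripts of other cells differed between the tissues. The 12 B and plasma cell markers summed to between 3044 and 12967 RPKM in LP neutrophils against 77.2 to 216.5 RPKM in tumour neutrophils, and to between 1828 and 5928 RPKM in LP monocytes against 222.3 to 335.0 RPKM in tumour monocytes. The 8 fibroblast markers were at most 1.58 summed RPKM in every tumour library and at least 8.04 in every LP library, and 7 of the 8 were at or under 3 reads in each tumour monocyte library. The 13 epithelial markers went the other way, with 213.6 to 416.5 summed RPKM in neutrophils of tumour against 24.4 to 96.7 in those of LP, and 151.1 to 402.4 in monocytes of tumour against 26.5 to 228.8 in those of LP, and 3 of 12 tested rose and 0 fell in each of these populations. Several single libraries lay far from the rest of their group. LP MHCIIlow II had 2761 summed RPKM over 8 cytosolic heat shock genes, against 688.0 and 795.0 in LP MHCIIlow III and IV. Tumour MHCIIlow I had 295.6 summed RPKM of epithelial markers against 16.4 and 34.7 in V and VII, and tumour MHCIIlow VII had 411.8 of B and plasma cell markers against 75.6 and 69.3 in I and V. In these bulk samples, fewer cells of a type and less RNA per cell cannot be told apart.

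**Figure D1:**
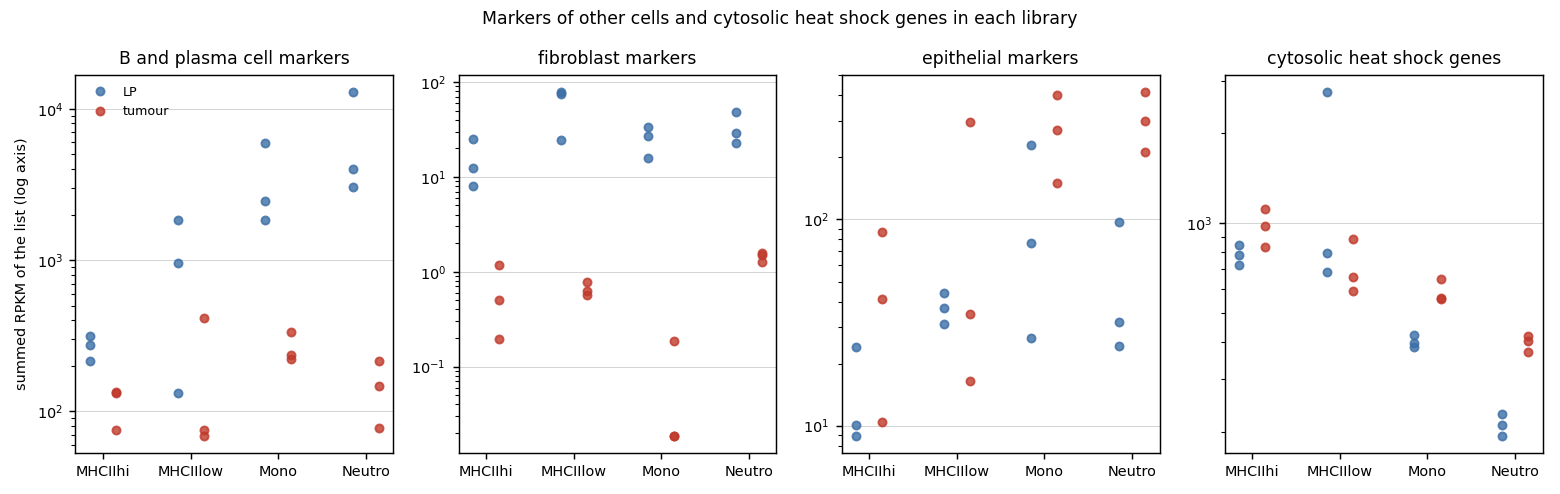
Summed RPKM (log axis) of marker genes of B and plasma cells, fibroblasts and epithelium and of cytosolic heat shock genes in each of the 24 libraries, by sorted population, LP in blue and tumour in red. LP monocytes and LP neutrophils lie at 1828 or more for the B and plasma cell markers, all tumour libraries lie below 2 for the fibroblast markers, and LP MHCIIlow II is the highest library for the heat shock genes at 2761.

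The levels of the 10 genes spanned a wide range per length of transcript. Hspa5, the abundant ER chaperone BiP, was the highest in every group, with group means from 8.27 to 9.52 log2 RPKM. Hsp90b1, Pdia4, Herpud1, Xbp1 and Atf4 had group means between 2.79 and 8.66 log2 RPKM, and Ddit3 between 2.06 and 5.54. Trib3, Asns and Chac1 were low, with group means from −4.02 to 4.74 log2 RPKM and single libraries down to 0 reads for Asns.

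**Figure D2:**
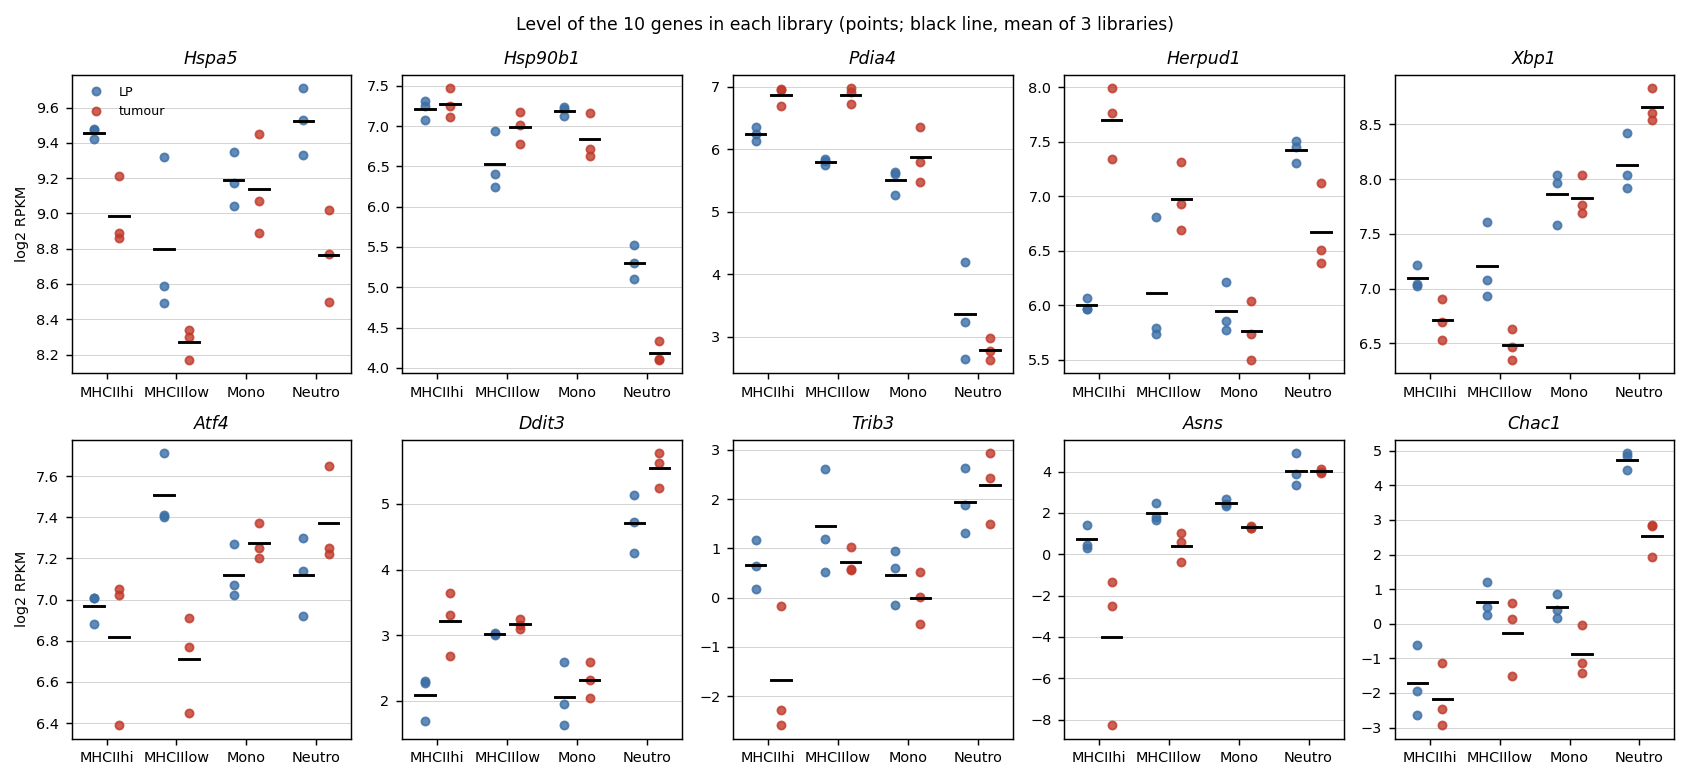
log2 RPKM of the 10 genes in each library (points) by sorted population, LP in blue and tumour in red, with the mean of 3 libraries as a black line. The vertical scale differs between panels. Hsp90b1 and Pdia4 are lowest in neutrophils, Ddit3 and Chac1 are highest there, and Herpud1 lies higher in tumour than in LP MHCIIhi macrophages.

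Tumour and LP cells of the same gate were compared first. In MHCIIhi macrophages 2 of the 10 genes rose and 2 fell in tumour at an adjusted p under 0.05, beside 19.5% of all genes tested in either direction (8.01% higher and 11.5% lower), and the median log2 difference was −0.26 beside 0.00 over all genes. In MHCIIlow macrophages again 2 rose and 2 fell, beside 23.3% of all genes (11.5% higher and 11.8% lower), with a median of −0.63 beside 0.06. In monocytes none of the 10 passed, beside 9.29% of all genes (4.86% higher and 4.43% lower). At an unadjusted p under 0.05 Hsp90b1 and Chac1, 2 of the 10, were lower in tumour monocytes, and limma voom on the recovered reads called 0 as well. The share of all genes at that unadjusted threshold was not counted, so the 2 genes cannot be set against it. In neutrophils 2 rose and 4 fell, beside 32.2% of all genes (13.1% higher and 19.0% lower), with a median of −0.29 beside −0.12. Tumour neutrophils depended on the scaling: of all genes called there 40.8% were higher in tumour, 57.1% with libraries centred on their medians and 15.9% with library sizes taken as summed reads, and of the 10 genes 3 then rose and 2 fell, or 0 rose and 5 fell. In monocytes these shares were 52.3%, 61.5% and 33.0%, and in MHCIIhi macrophages 41.1% became 52.2% with summed reads. The libraries of tumour and LP did not overlap for 7, 6, 2 and 6 of the 10 genes in MHCIIhi macrophages, MHCIIlow macrophages, monocytes and neutrophils, beside 43.0%, 42.1%, 31.4% and 40.1% of all genes.

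**Figure D3:**
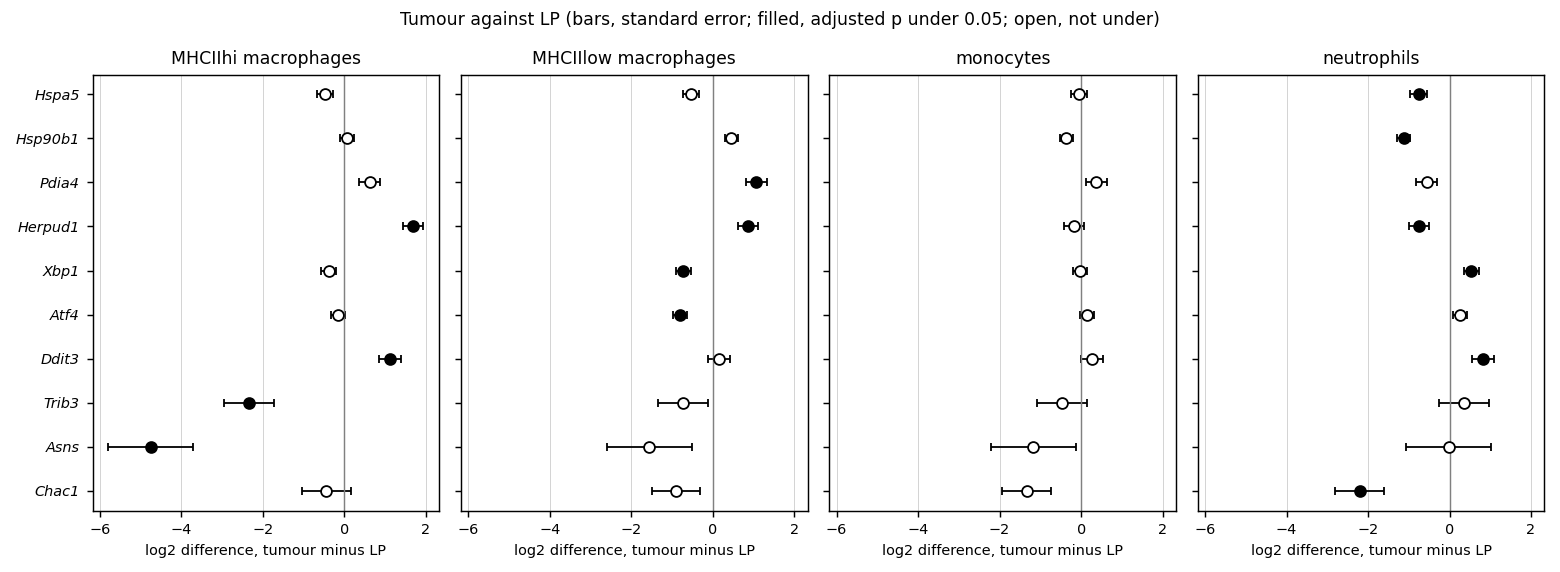
log2 difference, tumour minus LP, of the 10 genes in each sorted population, with its standard error, filled where the adjusted p was under 0.05. Herpud1 is at 1.69 in MHCIIhi and 0.86 in MHCIIlow macrophages and at −0.75 in neutrophils, and all 10 symbols are open in monocytes.

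Hspa5, the chaperone that also holds the stress sensors inactive, was lower in tumour neutrophils. It stood at 9.71, 9.33 and 9.53 log2 RPKM in LP neutrophils III, IV and V and at 8.50, 8.77 and 9.02 in tumour neutrophils I, II and V, so that the groups did not overlap. The log2 difference was −0.76 ± 0.20 (SE, n = 3 against 3, adjusted p = 0.00641 by limma), and with each library centred on its median it was −0.52 with an adjusted p of 0.0654. In MHCIIhi macrophages all 3 tumour libraries, 9.21, 8.86 and 8.89, lay below all 3 LP libraries, 9.42, 9.48 and 9.47, but the difference of −0.47 ± 0.20 did not pass (adjusted p = 0.109, limma). It passed in 3 of 17 alternatives. In MHCIIlow macrophages the tumour libraries lay at 8.30, 8.34 and 8.17 and LP MHCIIlow III and IV at 8.59 and 8.49, with LP MHCIIlow II, the library with the high heat shock genes, at 9.32. The difference there was −0.53 ± 0.20 (adjusted p = 0.0608, limma), and it passed in 8 of 17 alternatives.

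Hsp90b1, the ER form of Hsp90 (Grp94), had its largest tumour difference in neutrophils. LP neutrophils III, IV and V held 5.30, 5.10 and 5.52 log2 RPKM and tumour neutrophils I, II and V held 4.11, 4.33 and 4.10. Every tumour library was below every LP library, by a mean of −1.13 ± 0.17 (adjusted p = 5.63e-05, limma), a 2.18-fold lower level, and the call held in all 17 alternatives. In MHCIIhi macrophages the levels, 7.25, 7.08 and 7.31 in LP against 7.25, 7.11 and 7.47 in tumour, differed by 0.06 ± 0.17. In MHCIIlow macrophages the difference of 0.46 ± 0.17 (adjusted p = 0.0601, limma) became 0.67 (adjusted p = 0.00748) without LP MHCIIlow II, which was at 6.94 against 6.24 and 6.41 in the other LP libraries. That difference passed in 7 of 17 alternatives.

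Pdia4, a protein disulphide isomerase, was higher in tumour macrophages. In MHCIIlow macrophages it stood at 5.84, 5.75 and 5.82 log2 RPKM in LP II, III and IV and at 6.72, 6.92 and 6.98 in tumour I, V and VII. The groups did not overlap, and the difference was 1.07 ± 0.26 (adjusted p = 0.00512, limma), a 2.10-fold rise that passed in all 17 alternatives. In MHCIIhi macrophages the same direction was seen in every library, 6.36, 6.13 and 6.24 in LP against 6.95, 6.96 and 6.69 in tumour, but 0.62 ± 0.26 did not pass (adjusted p = 0.110, limma). It passed in 4 of 17 alternatives, with quantile normalization, library weights, voom and a fit of only the libraries compared. In neutrophils Pdia4 was low and uneven in LP, at 3.23, 2.64 and 4.20, and stood at 2.98, 2.63 and 2.77 in tumour, so that the groups overlapped. Without LP neutrophils IV, the lowest of them, the neutrophil difference changed from −0.56 ± 0.26 (adjusted p = 0.113) to −0.92 (adjusted p = 0.00687).

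The lower Hspa5 and Hsp90b1 levels of tumour neutrophils, where Pdia4 did not pass, stood beside the higher B and plasma cell markers of LP neutrophils. These markers summed to 4023, 3044 and 12967 RPKM in LP neutrophils III, IV and V, and 6 of 10 tested markers fell in tumour neutrophils while 0 rose. The order of Pdia4 and of Hsp90b1 over these libraries was the order of the marker sum, with V highest and IV lowest. For Hspa5 IV was lowest too, and III was highest. Of the defining markers, Igkc stood at 11.52 log2 RPKM in LP and 4.29 in tumour neutrophils, and Jchain at 9.18 and 1.29. In monocytes, too, 6 of 10 tested markers fell in tumour and 0 rose. Hspa5, Hsp90b1 and Pdia4 differed there by −0.05, −0.36 and 0.37, and none of them passed. Xbp1 was higher in tumour neutrophils, by 0.53 on the deposited scale. The part of these markers in the chaperone levels was not tested.

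Herpud1, a membrane protein of the ER degradation complex and a classical ER stress target, had the lowest adjusted p of the 10 genes in MHCIIhi macrophages. LP MHCIIhi III, IV and V held 5.97, 5.97 and 6.07 log2 RPKM and tumour MHCIIhi I, V and VII held 7.99, 7.34 and 7.76. The tumour libraries lay above all LP libraries, by 1.69 ± 0.25 (adjusted p = 6.49e-05, limma), a 3.23-fold rise that passed in all 17 alternatives. In MHCIIlow macrophages the tumour libraries stood at 7.31, 6.69 and 6.93 and the LP libraries at 6.81, 5.74 and 5.79, so that LP MHCIIlow II overlapped the tumour group. The difference of 0.86 ± 0.25 passed (adjusted p = 0.0164, limma), but not without LP MHCIIlow III (0.68, adjusted p = 0.0892), LP MHCIIlow IV (0.70, adjusted p = 0.0862) or tumour MHCIIlow I (0.70, adjusted p = 0.0857), the library with the high epithelial markers, nor in a fit of only the libraries compared (adjusted p = 0.0641).

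Herpud1 did not pass in monocytes. LP monocytes III, IV and V held 6.21, 5.77 and 5.86 log2 RPKM and tumour monocytes I, II and V held 5.50, 5.74 and 6.04, a difference of −0.18 ± 0.25 (adjusted p = 0.747, limma). The tumour effect in macrophages, averaged over the MHCIIhi and MHCIIlow gates, exceeded that in monocytes by 1.46 ± 0.31 (adjusted p = 0.00399, limma), and this difference of differences passed in all 29 alternatives. It was the only one of the 10 genes past the threshold for that comparison, which called 9.19% of all genes (3.55% higher and 5.64% lower). Both effects rest on separate LP and tumour libraries of each gate. In neutrophils the direction was the other way: LP neutrophils III, IV and V stood at 7.51, 7.45 and 7.30 and tumour neutrophils I, II and V at 6.39, 7.12 and 6.51. That fall of 0.75 on the log2 scale (SE 0.25, adjusted p = 0.0280, limma) did not pass without LP neutrophils III or IV or tumour neutrophils I or V (adjusted p from 0.0628 to 0.112), nor with libraries centred on their medians (−0.51, adjusted p = 0.146) or with library weights (−0.74, adjusted p = 0.111).

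Xbp1, the factor made active by Ire1, fell in tumour MHCIIlow macrophages. It stood at 7.61, 6.93 and 7.08 log2 RPKM in LP II, III and IV and at 6.63, 6.47 and 6.35 in tumour I, V and VII, without overlap. The difference was −0.72 ± 0.18 (adjusted p = 0.00496, limma) and passed in all 17 alternatives. In MHCIIhi macrophages the difference of −0.38 ± 0.18 had no overlap of libraries either but did not pass (adjusted p = 0.155, limma). It passed in 1 of 17 alternatives. In neutrophils Xbp1 was higher in tumour, at 8.54, 8.60 and 8.83 against 8.04, 7.92 and 8.42 in LP (0.53 ± 0.18, adjusted p = 0.0270, limma). That difference was 0.06 with library sizes taken as summed reads and 0.21 after quantile normalization, and without LP neutrophils III or IV or tumour neutrophils V its adjusted p was 0.0815 to 0.110. With library weights its adjusted p was 0.0950.

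Atf4, the transcription factor of the third branch, fell in tumour MHCIIlow macrophages as well. LP MHCIIlow II, III and IV held 7.71, 7.41 and 7.40 log2 RPKM and tumour MHCIIlow I, V and VII held 6.77, 6.91 and 6.45. The groups were apart, by −0.80 ± 0.17 (adjusted p = 0.00163, limma), and the call held in all 17 alternatives. In MHCIIhi macrophages, monocytes and neutrophils the differences were −0.15, 0.15 and 0.25 with an SE of 0.17 each, and none passed, except that the neutrophil value became 0.50 (adjusted p = 0.0286) with libraries centred on their medians. Since Atf4 is controlled chiefly in translation, these are levels of its mRNA only.

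Ddit3 (Chop), the factor associated with prolonged stress, rose in tumour MHCIIhi macrophages and in tumour neutrophils. In MHCIIhi macrophages LP III, IV and V held 1.69, 2.27 and 2.31 log2 RPKM and tumour I, V and VII held 3.64, 2.68 and 3.31. All tumour libraries were above all LP libraries, by 1.12 ± 0.27 (adjusted p = 0.00572, limma), and the call held in all 17 alternatives. In MHCIIlow macrophages the LP libraries at 3.0, 3.02 and 3.03 lay just under the tumour libraries at 3.25, 3.10 and 3.16, a difference of 0.16 ± 0.27 (adjusted p = 0.744). In neutrophils LP stood at 4.72, 4.26 and 5.14 and tumour at 5.62, 5.77 and 5.24, a difference of 0.83 ± 0.27 (adjusted p = 0.0238, limma). The neutrophil call held in 10 of 17 alternatives. It did not pass without LP neutrophils III or IV or tumour neutrophils I or II (adjusted p from 0.0527 to 0.122), and with library sizes as summed reads the difference was 0.37 (adjusted p = 0.285). Quantile normalization (0.69, adjusted p = 0.0822) and library weights (0.88, adjusted p = 0.101) also ended the call.

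The Ddit3 rise in tumour MHCIIhi macrophages stood beside other rapid-response genes. Of 10 immediate-early genes, 5 rose and 1 fell there, where 8.01% of all genes rose, and in neutrophils 9 rose and 0 fell, where 13.1% of all genes rose. Of 8 cytosolic heat shock genes, 2 rose and 3 fell in MHCIIhi macrophages. Of other cells' markers, 2 of 10 tested for B and plasma cells and 6 of 6 for fibroblasts fell there, and 1 of 12 epithelial markers rose. The part of any of these lists in the Ddit3 or Herpud1 levels was not tested.

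Trib3, a pseudokinase induced by Atf4 and Chop, was the second gene to fall in tumour MHCIIhi macrophages. It stood at 0.64, 0.17 and 1.17 log2 RPKM in LP III, IV and V, on 136, 114 and 150 reads, and at −0.16, −2.28 and −2.59 in tumour I, V and VII, on 52, 19 and 10 reads. The groups did not overlap, and the difference was −2.34 ± 0.61 (adjusted p = 0.00972, limma). It was −0.91 (adjusted p = 0.0619) on the log2(RPKM + 1) scale, and did not pass without LP MHCIIhi V (−2.08, adjusted p = 0.0502) or tumour MHCIIhi VII (−1.88, adjusted p = 0.0625). In the other gates Trib3 differed by −0.73, −0.47 and 0.35 with an SE of 0.61, and none passed. LP MHCIIlow II, at 2.62 on 541 reads, was far above LP MHCIIlow III and IV at 0.53 and 1.20.

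Asns, which makes asparagine, fell furthest in tumour MHCIIhi macrophages. LP III, IV and V held 140, 351 and 116 reads (0.32, 1.43 and 0.44 log2 RPKM), and tumour I, V and VII held 0, 48 and 14 reads (−8.27, −1.32 and −2.48). The groups did not overlap, and the difference was −4.75 ± 1.04 (adjusted p = 0.00267, limma). The value of the library at 0 reads depends on the prior of 0.25 reads behind the deposited scale, so the size is not a fold: it was −2.63 (adjusted p = 5.30e-04) without tumour MHCIIhi I, −2.86 on the log2(RPKM + 0.1) scale and −1.19 (adjusted p = 0.00365) on the log2(RPKM + 1) scale. The call was lost in a fit of only the libraries compared (adjusted p = 0.0614). The same direction, without overlap, was seen in MHCIIlow macrophages, at 1.79, 1.68 and 2.48 in LP against 0.57, 1.05 and −0.37 in tumour, and in monocytes, at 2.44, 2.32 and 2.69 in LP against 1.27, 1.28 and 1.38 in tumour. These differences of −1.56 and −1.17 did not pass beside an SE of 1.04 (adjusted p = 0.315 and 0.575, limma). That SE pools the spread of all 8 groups. The SD of Asns was 3.72 in tumour MHCIIhi macrophages, the group with the library at 0 reads, and at most 0.77 in any other group. In fits of only the libraries compared the adjusted p of the MHCIIlow and monocyte differences was 0.0295 and 0.0151.

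Chac1, a glutathione-degrading enzyme downstream of Atf4, differed most in neutrophils. LP neutrophils III, IV and V held 4.92, 4.45 and 4.84 log2 RPKM and tumour neutrophils I, II and V held 2.84, 1.94 and 2.81. The groups lay far apart, by −2.21 ± 0.60 (adjusted p = 0.00823, limma), a 4.63-fold lower level on 51 to 146 reads in tumour. The difference was −1.66 (adjusted p = 0.0538) after quantile normalization and −2.29 (adjusted p = 0.0680) with library weights. In tumour monocytes Chac1 was below every LP library, −1.43, −1.12 and −0.04 against 0.17, 0.39 and 0.86, but −1.34 ± 0.60 did not pass (adjusted p = 0.192, limma).

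The order of the 8 groups showed which populations carried each gene. Hsp90b1 and Pdia4 had the same low end: neutrophils of LP and tumour were the lowest groups for both, and for Hsp90b1 the step from LP MHCIIlow macrophages down to LP neutrophils was 1.22 ± 0.17 (adjusted p = 4.17e-06, limma) and that from LP to tumour neutrophils 1.13. For Pdia4 the step from LP monocytes down to LP neutrophils was 2.15 ± 0.26 (adjusted p = 1.08e-06, limma), and LP and tumour neutrophils, 0.56 apart, did not differ beyond their spread. Among the groups above neutrophils no neighbours in either order differed. Hspa5 did not share this order, since LP neutrophils had the highest mean at 9.52. Its only step between neighbours was at the bottom, where tumour MHCIIlow macrophages lay 0.49 ± 0.20 below tumour neutrophils (adjusted p = 0.0345, limma). The orders were fitted on the deposited scale only. Other scalings turned the Hspa5 difference between LP neutrophils and LP monocytes, as given below. The place of neutrophils in the Hspa5 order, and that step, are therefore not settled.

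Ddit3 and Chac1 had the opposite order, with both neutrophil groups on top. For Ddit3 the order was tumour neutrophils at 5.54, LP neutrophils at 4.71 and tumour MHCIIhi macrophages at 3.21, with both steps past the threshold. For Chac1 it was LP neutrophils at 4.74, tumour neutrophils at 2.53 and LP MHCIIlow macrophages at 0.64, again with both steps past the threshold. Trib3 and Asns also had their highest means in neutrophils and their lowest in tumour MHCIIhi macrophages, and for each of them only the last step, 1.67 and 4.44, passed.

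Herpud1 was highest in tumour MHCIIhi macrophages at 7.70, followed by LP neutrophils at 7.42, tumour MHCIIlow macrophages at 6.98 and tumour neutrophils at 6.67, and lowest in tumour monocytes at 5.76. No neighbours in that order differed, although 17 of the 28 pairs of groups did. With library sizes as summed reads, Herpud1 in tumour neutrophils minus tumour monocytes turned from 0.91 to −0.23. In LP the same difference changed from 1.47 to 0.65. The place of neutrophils for Herpud1 is therefore not settled. On the deposited scale Xbp1 was highest in tumour neutrophils at 8.66 and lowest in tumour MHCIIlow macrophages at 6.48, with steps between tumour and LP neutrophils and between tumour monocytes and LP MHCIIlow macrophages (0.62 ± 0.18, adjusted p = 0.00987, limma). The step between tumour and LP neutrophils was 0.06 with library sizes as summed reads. Tumour neutrophils minus tumour monocytes turned from 0.83 to −0.40 with quantile normalization and −0.31 with summed reads. The top place of neutrophils for Xbp1 is therefore not settled. Atf4 varied least on the deposited scale: its means spanned 0.80, from 7.51 in LP to 6.71 in tumour MHCIIlow macrophages, and no neighbours differed. With summed reads, Atf4 in neutrophils minus monocytes was −0.82 in LP and −1.03 in tumour, in place of 0.00 and 0.10. The place of neutrophils for Atf4, and its span, are therefore not settled.

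Neutrophils were compared with monocytes of the same tissue. In LP 4 of the 10 genes were higher and 2 lower in neutrophils, beside 54.5% of all genes (24.1% higher and 30.4% lower), and in tumour 6 were higher and 2 lower, beside 58.1% (23.3% higher and 34.9% lower). The libraries did not overlap for 7 of the 10 genes in LP and 8 in tumour, beside 60.8% and 62.2% of all genes. Hsp90b1 was lower, at −1.89 on the log2 scale, and Pdia4 at −2.15 in LP, and Ddit3 was higher by 2.65 ± 0.27 (adjusted p = 9.65e-08, limma) and Chac1 by 4.27 ± 0.60 (adjusted p = 6.18e-06, limma). In tumour Ddit3 was higher by 3.23 ± 0.27 and Chac1 by 3.39 ± 0.60, and Hsp90b1 and Pdia4 were lower, at −2.65 and −3.08. These 4 genes passed in all 18 alternatives in both tissues. Herpud1 (1.47 ± 0.25) and Trib3 (1.47 ± 0.61, adjusted p = 0.0479, limma) were also higher in LP neutrophils, and Trib3 (2.30 ± 0.61) and Asns (2.72 ± 1.04, adjusted p = 0.0311, limma) in tumour neutrophils, where Asns passed in 10 of 18 alternatives. In LP Trib3 passed in 12 of 18, and not without a filter (adjusted p = 0.0539), with library sizes as summed reads (0.65, adjusted p = 0.349) or without LP monocytes IV or V or LP neutrophils III or IV (adjusted p from 0.0745 to 0.179). Herpud1 in LP was 0.66 with quantile normalization and 0.65 with summed reads, and Trib3 in tumour was 1.16 with summed reads (adjusted p = 0.0874). The scaling of neutrophil libraries moved the others. The median of all genes was −0.24 in LP and −0.36 in tumour, and −1.07 and −1.49 with library sizes as summed reads. With that scaling the share of higher calls among all genes fell from 44.2% to 21.3% in LP and from 40.0% to 15.5% in tumour, 3 of the 10 genes were higher and 5 lower in LP and 2 higher and 4 lower in tumour, and the tumour differences of Herpud1 and Xbp1 changed from 0.91 and 0.83 to −0.23 and −0.31. No direction is therefore given for Hspa5, Xbp1, Atf4 or, in tumour, Herpud1 between neutrophils and monocytes.

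Macrophages, as the mean of both gates, differed from monocytes for Xbp1 in LP (−0.71 ± 0.15, adjusted p = 0.00154, limma), 1 gene of the 10 beside 29.5% of all genes (12.5% higher and 17.0% lower). The libraries did not overlap for 1 of the 10 genes in LP and 6 in tumour, beside 29.0% and 40.0% of all genes. In tumour 3 genes were higher and 4 lower, beside 38.3% of all genes (16.8% higher and 21.4% lower). With library sizes as summed reads 4 were higher and 2 lower, and the share of higher calls among all genes was 65.5% in place of 44.0%. Herpud1 was higher by 1.57 ± 0.22 (adjusted p = 8.23e-06, limma), Pdia4 by 1.00 ± 0.23 and Ddit3 by 0.87 ± 0.24. Xbp1 was lower, at −1.23 ± 0.15 (adjusted p = 2.18e-06, limma), as were Asns at −3.11, Hspa5 at −0.51 and Atf4 at −0.51. For Hspa5 and Atf4 this shrank to −0.03 each with quantile normalization (adjusted p = 0.921 and 0.856) and −0.17 each with library sizes as summed reads, and leaving out tumour monocytes I ended both calls (adjusted p = 0.0507 and 0.0501). Hspa5 also lost its call without tumour monocytes V (−0.36, adjusted p = 0.172), and the Asns value was −2.05 without tumour MHCIIhi I, −1.05 on the log2(RPKM + 1) scale, and not past the threshold in a fit of only the libraries compared (adjusted p = 0.0618).

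Within LP the macrophage gates differed for 4 genes beside 7.70% of all genes (2.13% higher and 5.57% lower), and the libraries did not overlap for 7 of the 10 beside 32.5%. MHCIIlow macrophages had less Hspa5 (−0.65 ± 0.20, adjusted p = 0.0490) and Hsp90b1 (−0.69 ± 0.17, adjusted p = 0.0179), and more Ddit3 (0.93 ± 0.27, adjusted p = 0.0406) and Chac1 (2.37 ± 0.60, adjusted p = 0.0193), all by limma. Leaving out any 1 of the 6 libraries left 0 to 2 of the 10 genes past the threshold, and with the pool number as a fixed replicate block 2 remained past the threshold, with adjusted p of 0.094 for Ddit3 and 0.0705 for Chac1. The Chac1 value rests on 8 to 44 reads in LP MHCIIhi macrophages and was 0.94 (adjusted p = 0.0163) on the log2(RPKM + 1) scale. With library sizes as summed reads 3 genes were higher and 0 lower, Hspa5 (−0.41, adjusted p = 0.200) and Hsp90b1 (−0.44, adjusted p = 0.154) no longer passed, and the share of higher calls among all genes was 63.8% in place of 27.6%. In tumour only Asns passed, higher in MHCIIlow by 4.44 ± 1.04 (adjusted p = 0.0412, limma) beside 1.13% of all genes (0.567% in each direction), and the libraries did not overlap for 4 of the 10 beside 17.6%. That value was 2.32 (adjusted p = 0.0245) without tumour MHCIIhi I, the library at 0 reads, and 1.01 (adjusted p = 0.0788) on the log2(RPKM + 1) scale, and did not pass without any 1 of the MHCIIlow libraries (adjusted p from 0.0704 to 0.162). With the pool number as a fixed replicate block 3 genes passed there, Hspa5 (−0.71, adjusted p = 0.0265) and Trib3 (2.40, adjusted p = 0.0339) with Asns.

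The tumour effect was compared between gates by interaction terms. Between MHCIIlow and MHCIIhi macrophages 0 of the 10 genes differed, beside 1.46% of all genes (1.13% higher and 0.326% lower), although Herpud1, Atf4, Ddit3 and Asns, 4 of the 10, had an unadjusted p under 0.05. Between neutrophils and monocytes 0 differed, beside 9.11% of all genes (3.61% higher and 5.50% lower), with 4 at an unadjusted p under 0.05. For both comparisons the share of all genes at that unadjusted threshold was not counted. The shares given are at the adjusted threshold, so the unadjusted counts cannot be set against them. Hsp90b1 was the nearest, at −0.77 (adjusted p = 0.0547, limma), and passed with the pool number as a random replicate block (adjusted p = 0.0452). Voom called 0 genes for either comparison.

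The wider pathway was read from 6 lists of other genes, counted at an adjusted p under 0.05. Over all genes 19.5%, 23.3%, 9.29% and 32.2% passed in MHCIIhi macrophages, MHCIIlow macrophages, monocytes and neutrophils, with medians of 0.00, 0.06, 0.00 and −0.12, and each list's counts are to be read against these shares. Of 14 further ER chaperones and folding enzymes, 1 rose and 1 fell in tumour MHCIIhi macrophages, 6 rose and 1 fell in MHCIIlow macrophages, 2 rose and 1 fell in monocytes, and 1 rose and 9 fell in neutrophils, with list medians of −0.05, 0.33, −0.13 and −0.75. Dnajb9, a BiP co-chaperone and Xbp1 target, fell in MHCIIhi (−0.59 ± 0.16) and MHCIIlow macrophages (−1.17 ± 0.16, adjusted p = 2.49e-05, limma). Ero1l, the oxidase that drives disulphide formation, rose in MHCIIlow macrophages (1.12 ± 0.19) and monocytes (1.21 ± 0.19, adjusted p = 4.47e-04, limma). The disulphide isomerase P4hb rose in MHCIIhi macrophages (0.49 ± 0.15) and monocytes (0.51 ± 0.15). In neutrophils Pdia6 (−1.48 ± 0.12, adjusted p = 4.81e-08, limma) and Hyou1, a large ER chaperone (−1.21 ± 0.30), fell furthest, beside the B and plasma cell markers given above.

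Of 12 genes of ER-associated degradation, 2 rose and 2 fell in MHCIIhi macrophages, 2 rose and 1 fell in MHCIIlow macrophages, 0 passed in monocytes and 6 fell in neutrophils with none rising, beside 19.5%, 23.3%, 9.29% and 32.2% of all genes. Edem2, which trims mannose from misfolded glycoproteins, rose in MHCIIhi (1.03 ± 0.17) and MHCIIlow macrophages (1.92 ± 0.17, adjusted p = 1.27e-07, limma), and the lectin Os9 rose in the latter (0.81 ± 0.11). In neutrophils Selenos fell by 1.31 on the log2 scale, and Derl3 stood at 1.66 ± 1.12 (SD, n = 3) log2 RPKM in LP against −5.62 ± 2.80 in tumour. These falls, too, stood beside the B and plasma cell markers, at 3044 to 12967 summed RPKM in LP and 77.2 to 216.5 in tumour neutrophils, whose part in them was not tested.

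Of 13 tested sensors and translation regulators, 1 rose and 2 fell in MHCIIhi macrophages, 4 rose and 2 fell in MHCIIlow macrophages, 1 rose in monocytes, and 1 rose and 4 fell in neutrophils, beside the same shares of all genes. Ern1, the Ire1 gene, fell in MHCIIhi macrophages from 4.09 ± 0.11 (SD, n = 3) to 2.56 ± 0.50 log2 RPKM (−1.53 ± 0.25, adjusted p = 1.67e-04, limma), as did the phosphatase subunit Ppp1r15b (−0.89 ± 0.17). Atf6b rose in MHCIIlow macrophages (1.19 ± 0.20) and neutrophils (1.49 ± 0.20), Eif2ak4 (Gcn2), the sensor of uncharged tRNA, rose in MHCIIlow macrophages (1.41 ± 0.44), and Atf6 rose in monocytes (0.53 ± 0.16). Eif2ak3, the Perk gene, fell in neutrophils from 2.62 ± 0.04 (SD, n = 3) to −0.73 ± 1.02 log2 RPKM (−3.35 ± 0.44, adjusted p = 1.04e-05, limma).

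**Figure D4:**
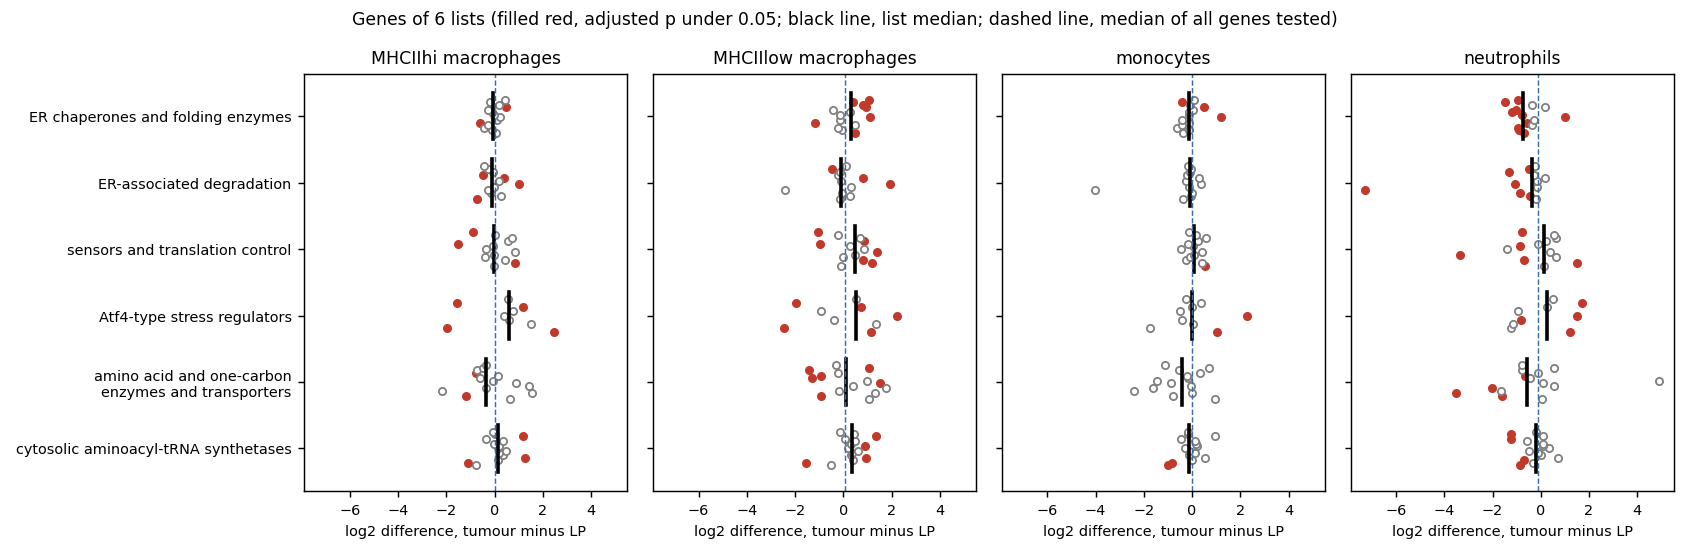
log2 difference, tumour minus LP, of the genes of 6 lists in each sorted population, filled red where the adjusted p was under 0.05, with the list median as a black line and the median of all genes tested as a dashed line. The ER chaperones and folding enzymes lie at a median of −0.75 in neutrophils, and the stress regulators spread to both sides of 0 in macrophages.

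The Atf4-type stress regulators moved both ways. Of 9 tested, 2 rose and 2 fell in MHCIIhi macrophages, 3 rose and 2 fell in MHCIIlow macrophages, 2 rose in monocytes, and 3 rose and 1 fell in neutrophils, again beside 19.5%, 23.3%, 9.29% and 32.2% of all genes. Atf3, an early-response repressor, rose in MHCIIhi macrophages from 7.05 ± 0.22 (SD, n = 3) to 9.51 ± 0.35 log2 RPKM (2.46 ± 0.24, adjusted p = 5.84e-07, limma) and in monocytes by 1.05 ± 0.24. Ddit4 (Redd1), an mTOR inhibitor that hypoxia also induces, rose in MHCIIlow macrophages (2.24 ± 0.32), monocytes (2.27 ± 0.32) and neutrophils (1.50 ± 0.32). Nupr1 rose in neutrophils (1.72 ± 0.35). Atf5 fell in MHCIIhi (−1.96 ± 0.64) and MHCIIlow macrophages (−2.44 ± 0.64), at levels under 1 log2 RPKM.

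The amino acid list and the aminoacyl-tRNA synthetases are given beside the same shares of all genes. Of 14 tested amino acid and one-carbon genes, 0 rose and 2 fell in MHCIIhi macrophages, 2 rose and 4 fell in MHCIIlow macrophages, 0 passed in monocytes, and 0 rose and 4 fell in neutrophils. Mthfd2, a mitochondrial folate enzyme (−1.18 ± 0.26), and Slc3a2, the heavy chain of amino acid exchangers (−0.79 ± 0.14), fell in MHCIIhi macrophages. In MHCIIlow macrophages the serine enzyme Shmt2 rose (1.51 ± 0.49) and the arginine transporter Slc7a1 fell (−1.44 ± 0.32). Pck2 and Psat1 were lower in tumour neutrophils (−3.51 ± 1.32 and −2.02 ± 0.67, adjusted p = 0.0485 and 0.0254, limma), where their libraries overlapped those of LP. Both were low and uneven. In tumour Pck2 stood at −2.96 ± 4.89 and Psat1 at −3.00 ± 1.74 log2 RPKM (SD, n = 3). In LP they stood at 0.55 ± 0.40 and −0.98 ± 1.33, so these sizes are uncertain. Of 15 synthetases, 2 rose and 1 fell, 3 rose and 1 fell, 0 rose and 2 fell, and 0 rose and 4 fell in MHCIIhi macrophages, MHCIIlow macrophages, monocytes and neutrophils. Vars rose in both macrophage gates (1.19 ± 0.37 and 1.35 ± 0.37) and Farsb in MHCIIhi (1.26 ± 0.33), while Cars fell in MHCIIlow macrophages (−1.54 ± 0.21) and monocytes (−0.84 ± 0.21), Aars in monocytes (−1.0 ± 0.29), and Wars and Tars in neutrophils (−1.25 each).

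The genes varied together only in part over the 24 libraries. These correlations are descriptions, since the libraries fall into 4 sorted populations from 2 tissues that differ in donors and isolation. Gates of the same tissue share pool numbers, and depth varied from 12.8 M to 41.7 M reads. Hsp90b1 and Pdia4 ran closest (Pearson r = 0.92), followed by Asns and Chac1 (r = 0.73) and Trib3 and Chac1 (r = 0.68), and Hsp90b1 and Ddit3 ran most against each other (r = −0.87). Among all tested genes those most like Hsp90b1 were Pdia6 (r = 0.980), Calr (r = 0.975) and Socs6 (r = 0.975), of which Pdia6 and Calr are ER folding genes. For the other 9 genes the 3 nearest held no gene of the 6 lists. They included Pigk, Trmt2a and Snx5 for Pdia4 (r from 0.974 to 0.984), Nab1, Gda and Snai1 for Xbp1 (r from 0.957 to 0.969), Sfxn5, Gtf2ird2 and Sat1 for Ddit3 (r from 0.931 to 0.934), and, among those given here, Tuba1a and Znrf1 for Chac1 (r = 0.939 and 0.920). For Herpud1 they were Tmem59, Cyb561a3 and Ppm1n (r from 0.797 to 0.836), for Asns Gm23374, Il20rb and Igf2r (r from 0.889 to 0.90), for Trib3 Optn, Plp2 and Tuba1a (r from 0.810 to 0.826), for Atf4 Dpysl3, Gm6682 and Arhgap23 (r from 0.790 to 0.820), and for Hspa5 Gm6829, Kif1a and Elovl5 (r from 0.786 to 0.808).

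The identity of the reads was checked on GENCODE M21. The genes are protein-coding and lie at chr2:34771970-34777547 (Hspa5), chr10:86690209-86705509 (Hsp90b1), chr6:47796141-47813430 (Pdia4), chr8:94386438-94395377 (Herpud1), chr11:5520659-5525893 (Xbp1), chr15:80255184-80257541 (Atf4), chr10:127290774-127296288 (Ddit3), chr2:152337422-152344032 (Trib3), chr6:7675169-7693254 (Asns) and chr2:119351229-119354381 (Chac1). For 8 of the 10 no stretch of 51 bases, the read length, occurred in a transcript of another gene. For Hsp90b1 9.63% of stretches did, all from 3 overlapping annotated genes, and for Ddit3 4.27% did, from a second Ddit3 entry and Mars, so that the levels of these 2 genes are less certain where counting split such reads.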

How the data were processed

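RNA of 24 sorted pools was sequenced after SMARTSeq v2 amplification, which does not mark strand, in 8 groups of 3. Per the labels and methods, reads were mapped to GRCm38/mm10 with STAR 2.3 and counted per GENCODE gene with featureCounts 1.5, and genes with few reads were removed. The deposited values are log2 RPKM with a prior of 0.25 reads. Whole reads were recovered from them for all 415224 values (tolerance 0.0001 reads), and the library sizes behind the deposited scale differ from the summed reads, most in neutrophils. Depth was 12.8 M to 41.7 M reads, median 26.4 M. Of the 17301 identifiers, 17190 matched GENCODE M21.

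Genes were kept when any group's average reached 1 RPKM, and these 12878 were fitted on the log2 scale with limma 3.58.1 (R 4.3.3), with 1 coefficient per group over all 24 libraries, empirical Bayes moderation and Benjamini-Hochberg adjustment over all genes. The fit was tested on simulated data. Fold changes stand on the deposited log2 scale. The 10 genes, the lists and the rules were chosen with earlier results of these data known. From each pathway list at most the 2 genes with the largest change among those past the threshold were named for each tumour against LP comparison, and for each of the 10 genes the 3 with the highest r over all libraries. Some genes these rules select are not reported here. Library sizes as summed reads were added as an alternative after the data were seen. Pairing was checked on the pool numbers, which the labels give as donors. Over 29 same-tissue library pairs that share a number, deviations from group means correlated at r from −0.0661 to 0.255 (median 0.0169, consensus correlation 0.0476). The numbers were therefore not used as a block in the reported fit. LP and tumour pools share no mice. Promoters and their sequences are RefSeq's, build GRCm38.p6. P-values measure the spread between these pools. Figures were drawn with matplotlib 3.10.9.

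Alternatives were log2(RPKM + 1) and log2(RPKM + 0.1), no filter and a mean RPKM of 5, quantile normalization, libraries centred on their medians, limma's library weights (arrayWeights), voom on the recovered reads, the pool number as a random or, within a tissue, a fixed replicate block, a fit of only the libraries compared, and leaving out each library in turn.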

Additional observations from a re-analysis of the deposited data

Results flagged for a closer look

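Herpud1 was flagged because its tumour effect differed between populations by a test of the difference itself. The effect in macrophages, averaged over both gates, minus that in monocytes was 1.46 ± 0.31 on the log2 scale (adjusted p = 0.00399, limma), and it passed in all 29 alternatives.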

How the results depend on the processing

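Of 2567 single-gene values under alternatives, 2362 stayed on their side of the threshold, 91 lost and 103 gained a call. Of the 2362, 63 in 12 comparisons changed sign with no call in either fit, none of them over 0.46 in size. The other 11 changed sign with a call in at least 1 of the fits, all between neutrophils and monocytes. With quantile normalization these turned to −1.08 (Hspa5), −0.86 (Xbp1) and −0.82 (Atf4) in LP and −0.40 (Xbp1) and −0.89 (Atf4) in tumour. With summed reads they turned to −0.49, −0.56 and −0.82 for the same LP genes and to −0.23 (Herpud1), −0.31 (Xbp1) and −1.03 (Atf4) in tumour. The scaling is what these alternatives change, and the cause was not otherwise tested.

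Counts of the 10 genes past the threshold and their median log2 differences moved as follows. Where no share of all genes in the same fit is given, here or above, the count describes the 10 genes alone. Such a count does not tell a change in these genes from a change in calls over all genes. In tumour against LP, MHCIIhi macrophages had 7 with library weights, and medians of −0.02 with weights and 0.02 with quantile normalization. MHCIIlow macrophages had 7 on the log2(RPKM + 1) scale. Monocytes had 1 on that scale and 1 in a fit of only the libraries compared. Neutrophils had 3 with quantile normalization and 2 with weights, and medians of −0.05 centred and −0.76 with summed reads.

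For MHCIIlow against MHCIIhi macrophages, LP had 2 without a filter, 2 centred and 2 with a fixed replicate block, and medians of 0.53 (quantile), 0.57 (summed reads) and 0.05 (fixed block). Tumour had 0 on the log2(RPKM + 1) scale and in a fit of only the libraries compared, 2 with a mean RPKM of at least 5, summed reads or weights, and 3 with the fixed block. For macrophages against monocytes, LP had 2 on the log2(RPKM + 1) or log2(RPKM + 0.1) scale, with weights or with the fixed block, and 3 with quantile normalization, summed reads, voom or only the libraries compared. In tumour the median was −0.05 on the log2(RPKM + 1) scale, −0.03 (quantile), −0.07 (summed reads), −0.21 (weights) and −0.18 (fixed block). For neutrophils against monocytes the LP median was 0.68 on the log2(RPKM + 1) scale, −0.08 (quantile), 1.19 (centred) and 0.08 (summed reads), and the tumour median −0.12, 1.32 and −0.27 for the last 3.

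For the difference of tumour effects, MHCIIlow minus MHCIIhi had 1 with quantile normalization or weights. Neutrophils minus monocytes had 1 on the log2(RPKM + 1) scale, with a mean RPKM of at least 5 or with a random replicate block, 3 with summed reads, and a median of −0.54 there. Macrophages minus monocytes had 2 on the log2(RPKM + 1) scale, with the stricter filter, quantile, centred or summed reads, 3 with weights or voom, and a median of 0.19 with quantile normalization and with summed reads.

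Leaving out 1 library at a time gave these lowest and highest counts and medians, again without the share of all genes called in each fit. Tumour against LP gave 3 to 4 and −0.32 to −0.05 in MHCIIhi, 4 to 5 and −0.74 to −0.21 in MHCIIlow, 0 to 0 and −0.27 to −0.04 in monocytes, and 3 (without LP neutrophils III) to 6 and −0.42 to −0.18 in neutrophils. MHCIIlow against MHCIIhi gave 0 (without LP MHCIIhi V) to 2 and 0.06 (without LP MHCIIlow II) to 0.45 in LP, and 0 to 2 and −0.13 to 0.02 in tumour. Macrophages against monocytes gave 1 to 2 and −0.13 to 0.08 in LP, and 5 to 7 and −0.51 to −0.15 in tumour. Neutrophils against monocytes gave 5 to 6 and 0.72 to 0.98 in LP, and 7 to 7 and 0.77 to 0.99 in tumour. The tumour effects gave 0 to 0 and −0.33 to 0.07 for the macrophage gates, 0 to 2 and −0.29 to −0.16 for neutrophils minus monocytes, and 1 to 2 and −0.17 to 0.11 for macrophages minus monocytes.

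With the pool number as a random replicate block 128 single-gene calls were kept and 2 gained, and as a fixed block within a tissue 54 were kept, 2 lost and 4 gained. Low read counts limit Trib3 (10 to 52 reads) and Asns (0 to 48) in tumour MHCIIhi macrophages. They limit Chac1 in MHCIIhi macrophages of LP (8 to 44) and tumour (6 to 33). Chac1 was also low in tumour MHCIIlow macrophages (16 to 78) and tumour monocytes (18 to 41).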
